A study of Mus musculus with 12 samples.

Results

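The hippocampus is built of subfields that can be told apart by the genes their principal neurons use, and 9 such genes were followed here in hippocampal RNA of adult mice, out of 35580 genes with a transcript in the data. They were taken by name: Prox1, C1ql2 and Dsp for granule cells of the dentate gyrus, Wfs1, Fibcd1 and Spink8 for pyramidal cells of CA1, Amigo2 and Rgs14 for CA2, and Grik4 for CA3. All 9 genes passed the filter on low values. The libraries came from 12 male C57BL/6 mice (C57BL/6J in the study's methods) killed at postnatal day 70, with 3 mice in each of 4 groups. Control mice had neither exposure. Ethanol mice were born to dams that drank 10% ethanol in water by choice during gestation, and by the study's methods ethanol stayed on offer for a time after birth. Stress mice were taken from dam and littermates for 3 h a day from postnatal day 2 to 14. Ethanol + stress mice had both treatments. Pups of one litter were divided between separation and no separation, and the labels do not say which mice were littermates, so that p-values measure the spread between these mice without regard to litter. Each library was made from dissected hippocampus as a whole, which holds all subfields and non-neuronal cells, so fewer cells of a type and less RNA per cell cannot be told apart.

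Information enters the hippocampus from the entorhinal cortex mainly through the dentate gyrus, whose granule cells project by mossy fibres to CA3, and CA3 pyramidal cells in turn project to CA1. CA2 is a small field between CA3 and CA1 that is known for its part in social memory. Granule cells are born into adulthood in the mouse, and Prox1, a homeobox transcription factor, is needed for their fate and upkeep.

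Values are in TPM, the share of a transcript among all transcript copies of a library after division by its length, summed over the transcripts of a gene. They had already been scaled between libraries by the authors. Depth was estimated from low values as 12.02 to 14.83 M read pairs per library, at which the 9 genes were covered by 180 (Amigo2) to 2470 (Fibcd1) read pairs. The 6 genes listed for forebrain excitatory neurons summed to 2677 to 2918 TPM. That list includes Snap25 and Rbfox3, which are not limited to excitatory neurons, and Snap25 alone held 1388 to 1705 TPM. In the same libraries the sums were 25.2 to 40.2 TPM for 4 thalamic and 45.2 to 76.2 TPM for 5 striatal genes. Of the striatal genes, Ppp1r1b alone held 29.7 to 53.8 TPM. Such sums of unlike genes do not measure the make-up of the dissected tissue. Ethanol replicate 2 and ethanol + stress replicates 2 and 3 stood apart from the other 9 libraries. In these 3, genes with transcripts under 1000 nt were higher than their mean over the libraries by a median of 0.30, 0.29 and 0.24 on the log2 scale, and log2 values fell by 0.11, 0.12 and 0.07 per doubling of transcript length. In the other 9 libraries this slope lay between -0.03 and 0.09. Haemoglobin and Alas2 transcripts (blood, 5 genes) summed to 1603 to 2022 TPM in control, 3146 to 6815 in ethanol, 2593 to 3392 in stress and 2454 to 6480 in ethanol + stress mice. The sum of 7 choroid plexus genes ran from 39.3 TPM in an ethanol library to 7256 TPM in an ethanol + stress library.

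Promoter sequence is shown for the gene whose level differed between ethanol-exposed and other mice, C1ql2 (chr1:120340332-120340581, plus strand), and for 3 genes of different subfields that varied together between libraries, Dsp (chr13:38151044-38151293, plus strand), Fibcd1 (chr2:31846006-31846255, minus strand) and Amigo2 (chr15:97247288-97247537, minus strand). Each line holds the 250 bases before the start of the gene in RefSeq on GRCm38.p6, read 5′ to 3′ on the gene's strand. Capitals mark GGGCGG and its reverse complement CCGCCC, the core of the GC box bound by Sp1-type factors.
C1ql2: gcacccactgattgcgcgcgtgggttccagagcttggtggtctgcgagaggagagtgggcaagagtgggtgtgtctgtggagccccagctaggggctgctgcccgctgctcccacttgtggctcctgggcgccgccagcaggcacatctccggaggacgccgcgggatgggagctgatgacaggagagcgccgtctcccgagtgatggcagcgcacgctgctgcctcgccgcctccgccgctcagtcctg
Dsp: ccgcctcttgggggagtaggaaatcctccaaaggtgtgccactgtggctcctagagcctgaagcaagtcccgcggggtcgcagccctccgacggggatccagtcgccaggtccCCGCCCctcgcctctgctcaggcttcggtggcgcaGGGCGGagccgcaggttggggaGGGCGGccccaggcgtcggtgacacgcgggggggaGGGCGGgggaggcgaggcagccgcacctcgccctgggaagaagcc
Fibcd1: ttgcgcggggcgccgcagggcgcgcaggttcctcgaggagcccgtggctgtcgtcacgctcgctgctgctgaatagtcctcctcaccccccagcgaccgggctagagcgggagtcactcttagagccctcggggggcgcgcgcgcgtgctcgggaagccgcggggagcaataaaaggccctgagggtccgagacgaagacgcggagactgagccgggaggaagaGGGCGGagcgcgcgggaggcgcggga
Amigo2: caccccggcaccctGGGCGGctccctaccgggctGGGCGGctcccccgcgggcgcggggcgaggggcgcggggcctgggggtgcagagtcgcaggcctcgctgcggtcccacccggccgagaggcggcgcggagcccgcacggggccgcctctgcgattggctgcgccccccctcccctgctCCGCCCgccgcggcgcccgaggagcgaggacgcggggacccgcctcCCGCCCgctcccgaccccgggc
The GC box core was matched 4 times in the Dsp window, 4 times in that of Amigo2 and 1 time in that of Fibcd1, and it was not matched in that of C1ql2. Among the members not shown it was matched 4 times for Wfs1, 1 time for Grik4, and 2 and 1 times in the windows of Prox1. Its presence therefore does not set the 3 genes shown apart. At least 1 match was present in 32.7% of 32851 mouse promoter windows of the same length, a share not adjusted for GC content. GC content was 68.8% for C1ql2, 72.4% for Dsp, 71.6% for Fibcd1 and 84.0% for Amigo2, where the median promoter had 52.4%. The Amigo2 window was richer in G and C than 99.7% of promoters. The sequences hold 20, 22, 34 and 38 CpG in that order, against a median of 6. Of the 9 genes, 7 were matched to a RefSeq promoter.

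In control mice the genes spanned a range from Rgs14 at 74.5 ± 4.98 TPM (mean ± SD, n = 3) to Dsp at 10.5 ± 0.514 TPM. Between them followed Spink8 at 72.1 ± 6.43, Fibcd1 at 55.2 ± 3.21, C1ql2 at 51.2 ± 5.18, Wfs1 at 36.2 ± 2.75, Grik4 at 19.7 ± 1.41, Prox1 at 14.2 ± 0.515 and Amigo2 at 12.3 ± 0.272 TPM. The control libraries of Rgs14 overlapped those of Spink8, and those of Fibcd1 overlapped those of C1ql2. The other neighbours in this order did not overlap in control mice. Wfs1 lay above Grik4, Grik4 above Prox1, and Amigo2 above Dsp in 12 of 12 libraries. Over all libraries Rgs14 varied least, with a coefficient of variation of 7.37%, and Dsp most, with 30.9%, followed by Spink8 with 30.3% and Wfs1 with 27.3%.

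**Figure D1:**
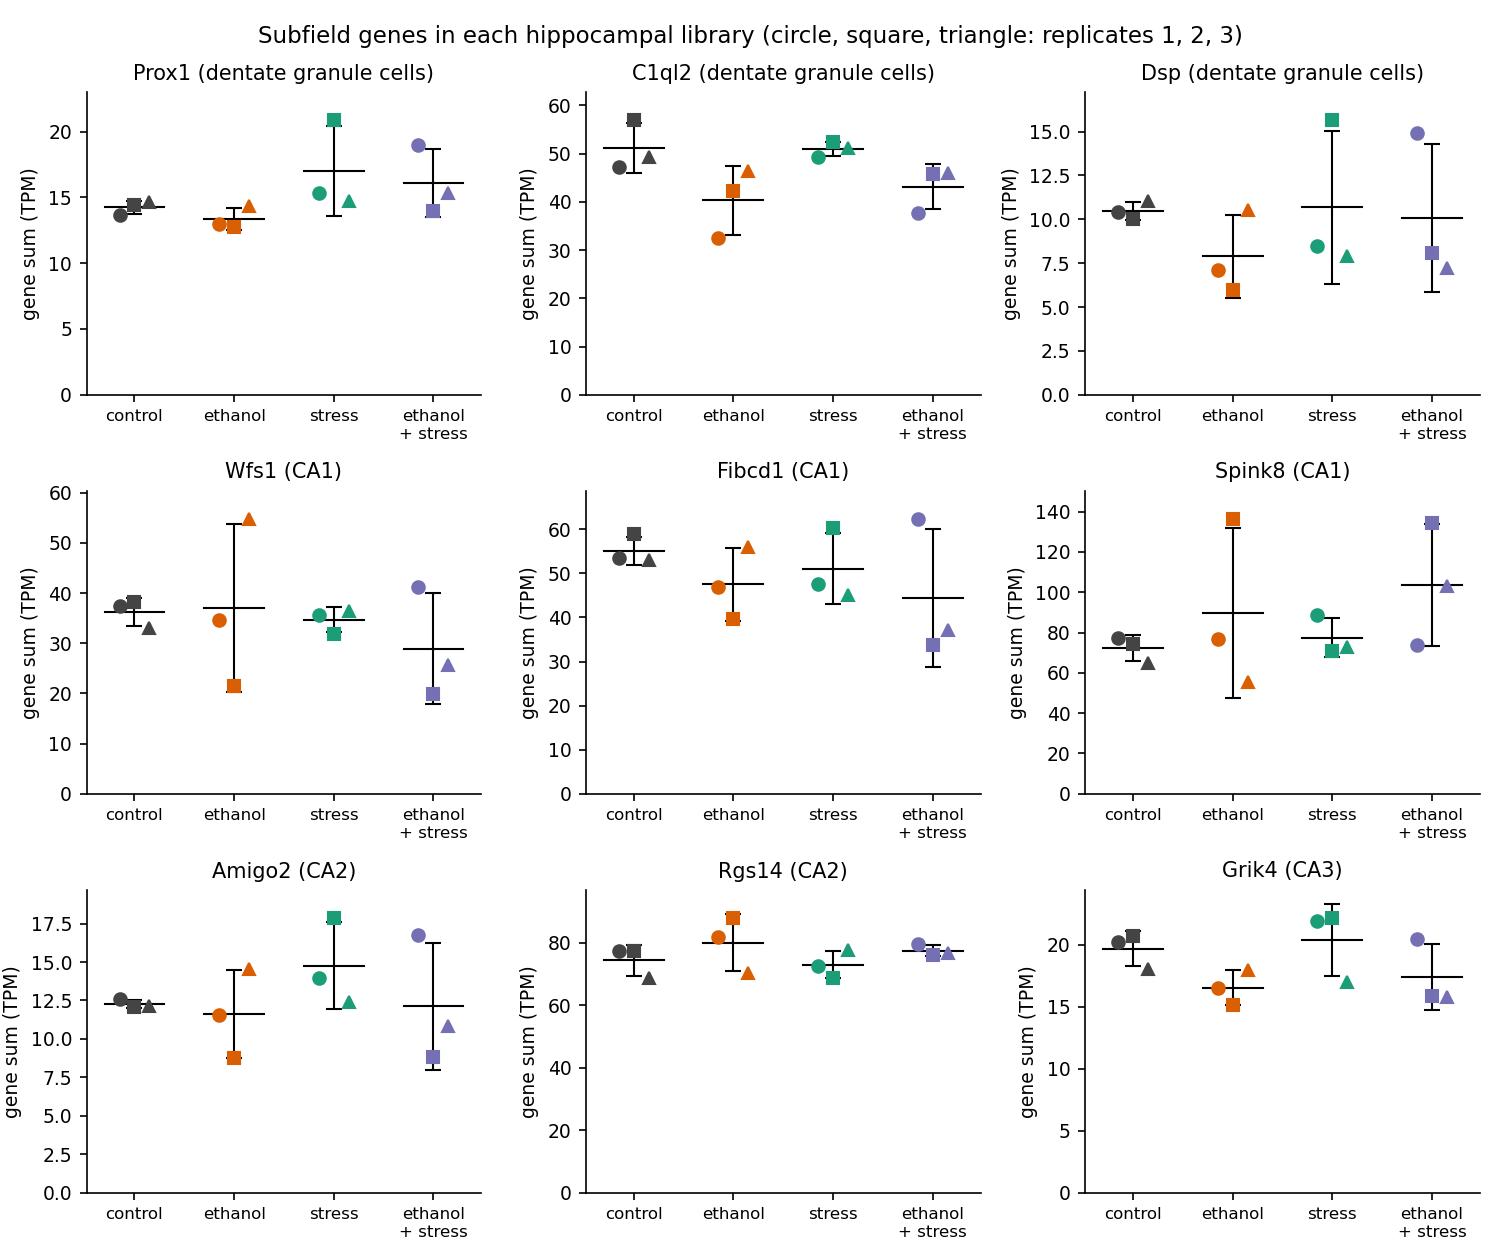
Summed TPM of each subfield gene (vertical axes, from 0) in the 12 libraries by group, where circles, squares and triangles are replicates 1, 2 and 3, horizontal lines are group means and bars are SD (n = 3). The 6 C1ql2 values of ethanol and ethanol + stress mice, 32.4 to 46.3 TPM, lie below the 6 values of control and stress mice, 47.3 to 57.1 TPM, while Wfs1 and Spink8 spread widely within the ethanol and ethanol + stress groups.

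Against control, the gene sums were tested with limma, and genes with an unadjusted p under 0.01, the threshold used in the study, were called. None of the 9 genes was called in ethanol mice, where 0.678% of 18434 genes tested were called, none in stress mice (0.51% of all genes) and none in ethanol + stress mice (0.971%). At an unadjusted p under 0.05, 1 of the 9 genes passed in ethanol mice, C1ql2, beside 3.63% of all genes. At that level 0 of the 9 passed in stress mice (2.4% of all genes) and 0 in ethanol + stress mice (5.37%). The effect of ethanol did not differ detectably between separated and undisturbed mice for any of the 9 genes (limma interaction, unadjusted p from 0.436 to 0.966, where 0.461% of all genes were called and 2.69% had a p under 0.05). Comparing all 6 ethanol-exposed with the 6 other mice, 1 of the 9 genes was called, C1ql2, where 1.12% of all genes were called and 0.298% were called lower. At an unadjusted p under 0.05 there were 2, C1ql2 and Grik4, beside 5.79% of all genes. Comparing the 6 separated with the 6 undisturbed mice, 0 of the 9 were called, where 0.586% of all genes were, and 1 of the 9, Prox1, had an unadjusted p under 0.05, as 3.28% of all genes did.

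C1ql2 encodes a secreted protein of the C1q family that granule cells release at mossy fibre synapses, where it helps to gather kainate receptors. It is a gene of 1 transcript at chr1:120340582-120343174 (plus strand), downstream of the promoter shown first above. Its level was lower over the 6 mice exposed to ethanol than over the 6 others. The control mice had 47.3, 57.1 and 49.2 TPM of C1ql2, and ethanol mice had 32.4, 42.2 and 46.3 TPM. It was at 49.3, 52.4 and 51.1 TPM in stress and 37.7, 45.8 and 46.0 TPM in ethanol + stress mice. All 6 ethanol-exposed libraries lay below all 6 others, which was so for 0.108% of all genes. Against control alone, 3.19% of all genes lay wholly lower in ethanol and 4.62% in ethanol + stress mice, as C1ql2 did in both. The nearest values were 46.3 and 47.3 TPM, a gap smaller than the SD within either set of 6. The mean was 41.7 ± 5.65 TPM in the 6 exposed and 51.1 ± 3.42 TPM in the 6 other mice (SD). This is a log2 change of -0.30 (standard error 0.09, limma adjusted p = 0.76 over all genes), or 0.814-fold with a 95% interval from 0.707 to 0.938. An exact permutation test within the separated and the undisturbed mice gave p = 0.005, two-sided, the smallest that 400 arrangements can give. The change was -0.35 in ethanol mice (95% interval -0.64 to -0.06, limma adjusted p = 0.997) and -0.24 in ethanol + stress mice (-0.53 to 0.04, limma adjusted p = 0.791). The call over 6 and 6 mice was close to the threshold: it was lost without control replicate 2 (-0.26), control replicate 3 (-0.31), stress replicate 1 (-0.31), 2 (-0.29) or 3 (-0.30), ethanol replicate 1 (-0.22) or ethanol + stress replicate 1 (-0.25), and with an eBayes fit without trend. In the same comparison all 5 blood genes were called higher, with a median log2 change of 0.82, and 0 of 4 genes listed for ventral hippocampus were called, with a median of -0.17. The part of these lists in the C1ql2 difference was not tested. The length of the C1ql2 transcript, 2000 nt, lies where the length trend of these libraries is near 0, with a median difference of 0.11 for genes of 1500 to 2000 nt and 0.00 for genes of 2000 to 3000 nt between the 3 libraries that stood apart and the other 9, so removing that trend (-0.31) could change C1ql2 little. Without those 3 libraries the change was -0.41, with 2 ethanol mice and 1 ethanol + stress mouse left.

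Prox1 (chr1:190118035-190170714, minus strand) had 13.7, 14.4 and 14.7 TPM in control mice and ranged little in ethanol mice, with 13.0, 12.7 and 14.4 TPM. In stress mice it was at 15.3, 20.9 and 14.7 TPM, and in ethanol + stress mice at 19.0, 14.0 and 15.3 TPM. Stress replicate 2 and ethanol + stress replicate 1 were the highest. The stress libraries lay above the control libraries by a margin of 14.71 against 14.67 TPM, and 7.2% of all genes did not overlap in this comparison in one direction or the other. Over the 6 separated and 6 undisturbed mice the log2 difference was 0.24 (95% interval 0.01 to 0.47, limma adjusted p = 1, exact permutation p = 0.02), and the groups overlapped. It did not pass the threshold. With the length trend removed it was 0.27 and passed (limma adjusted p = 0.999), and without stress replicate 2 it was 0.16. Prox1 overlaps 2 antisense genes, Gm28172 and Prox1os, as Dsp overlaps Gm10129 and Amigo2 overlaps Pced1b on the opposite strand. The libraries were stranded, but whether strand was used in quantification is not given in the sources used here, so reads of such pairs may be mixed.

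Dsp encodes desmoplakin, a protein of desmosomes best known from epithelia and heart muscle. It lies at chr13:38151294-38198577 (plus strand), and its transcripts were the longest of the 9 genes, with a mean length of 8519 nt when each is weighted by its share of the values. Control mice had 10.4, 10.0 and 11.04 TPM of Dsp, and ethanol mice had 7.12, 5.98 and 10.5 TPM. Values were 8.47, 15.7 and 7.88 TPM in stress mice, with 14.9, 8.06 and 7.24 TPM in ethanol + stress mice. Each treated group held a library with a value above or near the control values and others below them, so that all groups overlapped. The differences from control were -0.43 (95% interval -1.09 to 0.23), -0.04 (-0.70 to 0.62) and -0.13 (-0.79 to 0.53) on the log2 scale in ethanol, stress and ethanol + stress mice. These intervals were wider than those of C1ql2. The same 2 libraries were highest for Dsp and Prox1.

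The 3 CA1 genes did not move together. Wfs1 (chr5:36966104-36989205, minus strand) encodes wolframin, a membrane protein of the endoplasmic reticulum. It had 37.3, 38.2 and 33.1 TPM in control mice, and stress mice were alike with 35.7, 31.8 and 36.5 TPM, but it was at 34.7, 21.5 and 54.8 TPM in ethanol and 41.2, 19.8 and 25.7 TPM in ethanol + stress mice. The lowest 3 Wfs1 values were those of the 3 libraries with the steepest negative length trend. Spink8, of the family of Kazal-type serine protease inhibitors, lies at chr9:109812280-109826633 (plus strand) and ran the other way. It was at 77.1, 74.4 and 64.9 TPM in control, 76.8, 137 and 55.3 TPM in ethanol, 88.6, 71.0 and 72.8 TPM in stress and 73.7, 134 and 103 TPM in ethanol + stress mice. The highest 3 Spink8 values came from the same 3 libraries in which Wfs1 was lowest, and the library with the highest Wfs1, ethanol replicate 3, had the lowest Spink8. Fibcd1 (chr2:31813290-31846005, minus strand) encodes a membrane protein with a fibrinogen C domain that binds acetylated sugars. It was at 53.5, 58.9 and 53.1 TPM in control, 46.9, 39.6 and 56.1 TPM in ethanol, 47.7, 60.2 and 45.2 TPM in stress and 62.5, 33.8 and 37.2 TPM in ethanol + stress mice. Like Wfs1, it was lowest in the 3 libraries.

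Differences of the CA1 genes from control did not pass the threshold. In ethanol + stress mice the log2 differences were -0.38 for Wfs1 (95% interval -1.03 to 0.27), -0.36 for Fibcd1 (-0.81 to 0.09) and 0.48 for Spink8 (-0.13 to 1.097). The adjusted p from limma was 0.791 for each of these 3 genes. Replicate 1 of this group decided the Fibcd1 result, since without it the difference was -0.63 and passed the threshold (limma adjusted p = 0.237), while without the 3 libraries that stood apart replicate 1 is the only mouse left in the group, and the difference is then its own, 0.18 for Fibcd1 and 0.19 for Wfs1. In ethanol mice the differences were -0.07, -0.23 and 0.21, and in stress mice -0.06, -0.12 and 0.10, for Wfs1, Fibcd1 and Spink8. Without ethanol replicate 2 the ethanol differences of Wfs1 and Spink8 were 0.27 and -0.14, both reversed in sign.

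**Figure D2:**
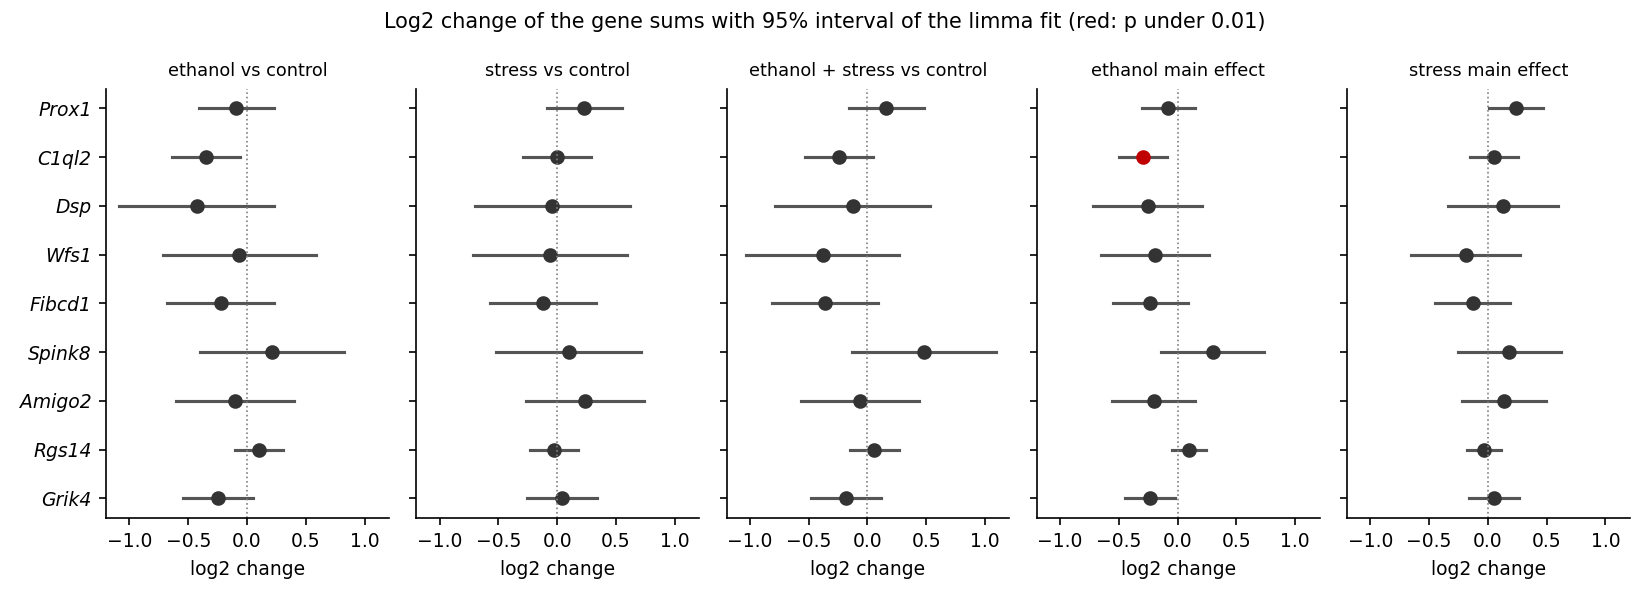
Log2 change of the summed TPM of each subfield gene (horizontal axes) in 5 comparisons, with points for the estimate and lines for its 95% interval in the limma fit. C1ql2 over ethanol-exposed and other mice (-0.30) is the single red point, with an unadjusted p under 0.01, and the intervals of Dsp, Wfs1 and Spink8 are the widest.

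The 2 CA2 genes behaved unlike each other in the values as deposited. Their Pearson r over the 12 libraries was -0.547, but 0.539 with values rescaled to a common total, so this contrast turns with the scaling. Amigo2 (chr15:97244125-97247287, minus strand) encodes a cell adhesion protein with leucine-rich repeats. Its values in the control libraries were close, at 12.6, 12.1 and 12.1 TPM, and spread out in ethanol (11.6, 8.76 and 14.5 TPM), stress (13.9, 17.9 and 12.4 TPM) and ethanol + stress mice (16.7, 8.82 and 10.8 TPM). The differences from control were -0.10 (95% interval -0.61 to 0.40), 0.24 (-0.26 to 0.74) and -0.07 (-0.57 to 0.44) on the log2 scale. Its lowest 3 values were again those of the 3 libraries that stood apart. Rgs14 (chr13:55369732-55384687, plus strand) encodes a regulator of G protein signalling that holds back plasticity in CA2 neurons. It stayed between 68.7 and 88.1 TPM in all 12 libraries. Rgs14 was at 77.3, 77.5 and 68.7 TPM in control, 81.8, 88.1 and 70.4 TPM in ethanol, 72.6, 68.8 and 77.6 TPM in stress and 79.7, 76.1 and 76.9 TPM in ethanol + stress mice, and every treated group overlapped the control group. Its differences from control had the narrowest intervals of the 9 genes, at 0.10 (-0.11 to 0.31), -0.03 (-0.23 to 0.18) and 0.06 (-0.15 to 0.26). With values rescaled to a common total per library, the last of these was -0.08.

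Grik4 encodes a high-affinity kainate receptor subunit, GluK4, found at mossy fibre inputs to CA3, and lies at chr9:42518135-42944493 (minus strand). Control mice had 20.2, 20.7 and 18.1 TPM of Grik4, and ethanol mice had 16.5, 15.1 and 18.0 TPM. In stress mice it was at 22.0, 22.2 and 17.0 TPM, and in ethanol + stress mice at 20.5, 15.9 and 15.8 TPM. The ethanol libraries lay below the control libraries, a pattern that 3.19% of all genes showed in this comparison, while the ethanol + stress libraries overlapped them. The log2 difference was -0.24 in ethanol mice (95% interval -0.54 to 0.05, limma adjusted p = 0.997), 0.04 in stress mice (-0.26 to 0.34) and -0.18 in ethanol + stress mice (-0.48 to 0.12). Over the 6 exposed and 6 other mice Grik4 was at 17.0 ± 1.96 and 20.04 ± 2.10 TPM (SD), a log2 difference of -0.23 (limma adjusted p = 0.76, exact permutation p = 0.035) that did not pass the threshold. It passed without stress replicate 3 (-0.30) or ethanol + stress replicate 1 (-0.29), and it was -0.08 and did not pass without the 3 libraries that stood apart, where ethanol + stress replicate 1, with the highest Grik4 value of its group, is the 1 mouse left there.

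Further genes of each subfield were looked up in the same fit. The share of all genes called, given above, was 0.678%, 0.51% and 0.971% in ethanol, stress and ethanol + stress mice. Of 7 other granule cell genes, 0 were called in any of the 3 comparisons with control, with median log2 changes of -0.09, 0.01 and -0.04 (ethanol, stress and ethanol + stress in that order), beside 0.02, 0.00 and 0.02 for all genes. Calb1, which encodes the calcium buffer calbindin, was the highest of them, at 58.8 to 76.6 TPM. Dock10, a guanine nucleotide exchange factor, had the smallest p, with 41.1, 40.9 and 45.6 TPM in the control libraries against 32.8, 31.7 and 35.8 TPM in those of ethanol mice (log2 change -0.34, limma adjusted p = 0.997). Its ethanol values lay below its control values, as those of 3.19% of all genes did. Of 5 other CA1 genes, 0 were called, with medians of 0.05, -0.04 and -0.13. Mpped1, the highest of them, was at 109.6 to 141 TPM. Of 8 other CA2 genes, 1 was called, higher in ethanol + stress mice, with medians of 0.15, 0.15 and 0.18. This was Stard5, a lipid transfer protein, which rose from 9.01, 6.97 and 8.04 TPM in the control libraries to 11.4, 11.6 and 10.3 TPM (log2 change 0.45, limma adjusted p = 0.791). Pcp4, a calmodulin-binding peptide that is the highest of these genes, was at 302 to 440 TPM and was not called. Of 8 other CA3 genes, 1 was called, also higher in ethanol + stress mice, with medians of -0.00, 0.07 and 0.09. It was Iyd, which encodes iodotyrosine deiodinase, at 4.12, 6.999 and 5.36 TPM in the control libraries against 8.53, 7.80 and 9.05 TPM in those with both exposures (log2 change 0.61, limma adjusted p = 0.791). Bok, of the BCL2 family and the highest of this list, ran from 68.1 to 128 TPM. Over the 6 exposed and 6 other mice, Stard5 was again called higher (0.33, limma adjusted p = 0.76), and no other gene of these 4 lists was. Of 3 genes of hilar mossy cells, 0 were called in any comparison.

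Genes of one subfield varied both with and against each other between mice. Among 36 pairs of the 9 genes, 13 had a Pearson correlation over the 12 libraries that passed an adjusted p of 0.05 (100000 permutations, Benjamini-Hochberg over the 36 pairs), 10 of them positive. Within a subfield 4 of 7 pairs were among them (57.1%), 2 of these positive, and between subfields 9 of 29 (31.0%), 8 of these positive. With a common total the shares were 57.1% and 62.1%, so that their order turns with the scaling. Fibcd1 of CA1 and Amigo2 of CA2 had r = 0.843 (permutation p = 0.00051, adjusted 0.00837) and Spearman's rho = 0.811 (permutation p = 0.00238, adjusted 0.0183). Dsp of the dentate gyrus and Amigo2 had r = 0.843 (permutation p = 0.00078, adjusted 0.00837) and rho = 0.818 (permutation p = 0.0019, adjusted 0.0183). Dsp and Fibcd1 had r = 0.813 (permutation p = 0.00127, adjusted 0.00837) and rho = 0.825 (permutation p = 0.00157, adjusted 0.0183). Without the 2 libraries farthest from the median of the first gene, these were 0.799, 0.652 and 0.747. Within the dentate gyrus, Prox1 and Dsp had r = 0.809 (permutation p = 0.00186, adjusted 0.00837) and rho = 0.559 (permutation p = 0.0632, adjusted 0.141), and r was 0.382 without 2 libraries. As deviations from the group means it was 0.795 without 2 libraries, and with a common total 0.864, so that its dependence on them changes with the scaling. C1ql2 had r = 0.194 with Prox1 (permutation p = 0.54, adjusted 0.607) and 0.228 with Dsp (permutation p = 0.477, adjusted 0.573). Within CA1, Wfs1 had r = 0.795 with Fibcd1 (permutation p = 0.00177, adjusted 0.00837) and rho = 0.706 (adjusted permutation p = 0.0606), with r = 0.581 without 2 libraries. With Spink8, Wfs1 had r = -0.911 (permutation p = 0.00022, adjusted 0.00792) and rho = -0.587 (adjusted permutation p = 0.117), with r = -0.761 without 2 libraries. The CA2 pair, Amigo2 and Rgs14, had r = -0.547 (permutation p = 0.0646, adjusted 0.129), which was -0.097 without 2 libraries and turned to 0.539 with a common total. By rank, 6 pairs passed an adjusted p of 0.05 (permutation test), each of them joining 2 of Dsp, Fibcd1, Amigo2 and Grik4, and none of the 7 pairs within a subfield was among them. That too turns with the scaling, since 3 of the 7 passed by rank with a common total. As deviations from the group means 3 passed as well, by a permutation test that ignores the freedom lost to those means.

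**Figure D3:**
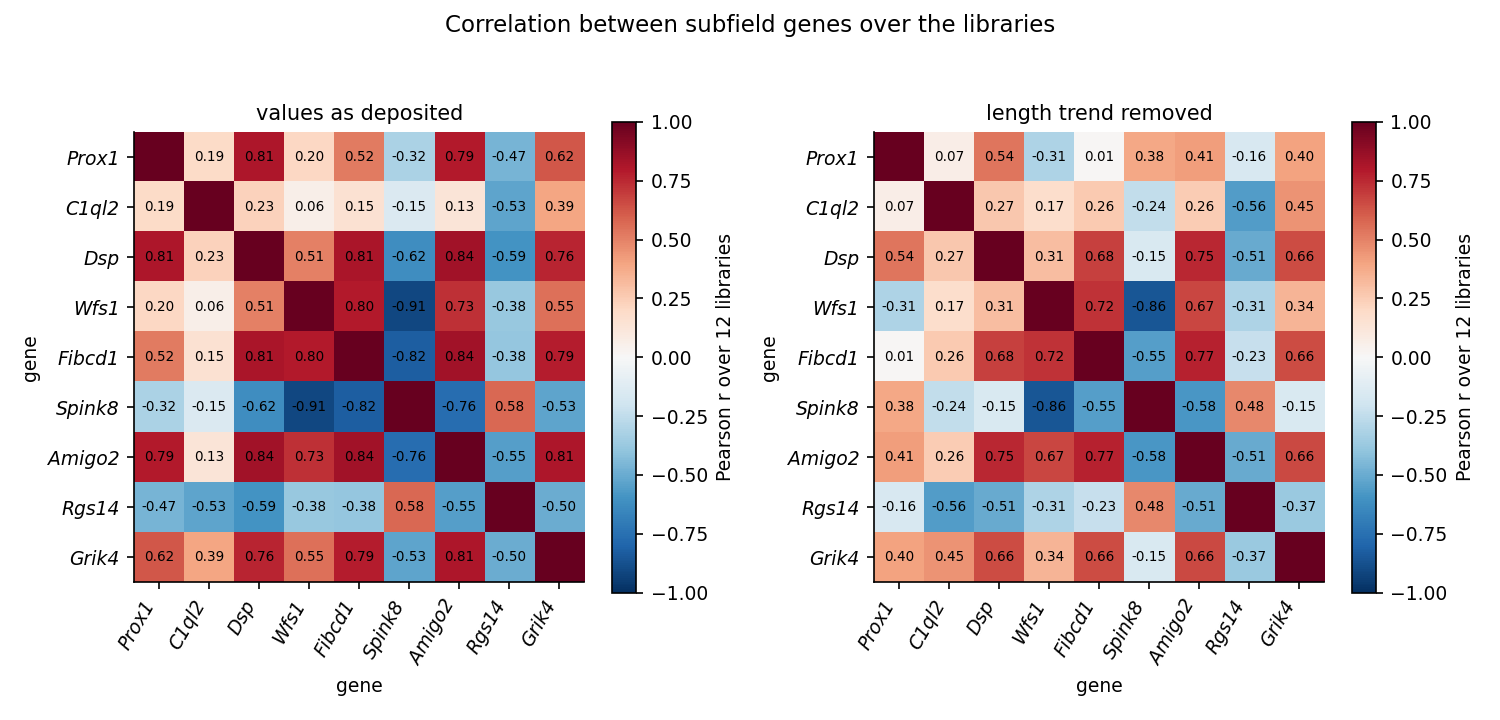
Pearson r over 12 libraries for each pair of subfield genes (both axes), with colour and printed number for r, for values as deposited (left) and with each library's trend over transcript length removed (right). Spink8 and Wfs1 are opposed in both panels (-0.91 and -0.86 over the 12 libraries), and Fibcd1 and Amigo2 go from 0.84 to 0.77.

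These correlations changed with the length trend. With it removed from each library, 1 of the 36 pairs passed, Wfs1 and Spink8 (r = -0.857), while Fibcd1 with Amigo2 (r = 0.769) and Dsp with Amigo2 (r = 0.752) missed the threshold (adjusted permutation p = 0.061 for both). Prox1 with Amigo2 went from 0.791 to 0.415, Prox1 with Dsp from 0.809 to 0.538 and Fibcd1 with Spink8 from -0.821 to -0.551, and Dsp with Amigo2 was 0.442 without 2 libraries. Over the other 9 libraries alone 2 pairs passed, Prox1 with Amigo2 (r = 0.920) and Dsp with Fibcd1 (r = 0.893), and neither passed by rank (adjusted permutation p = 0.446 and 0.39). Without 2 further libraries these were 0.535 and 0.880. In the same 9 libraries Wfs1 with Spink8 had r = -0.588 but rho = -0.033, and r turned to 0.198 without 2 of them, and Wfs1 with Fibcd1 had r = 0.241. After rescaling to a common total 22 pairs passed. Within the treatment groups, as deviations from the group means, 16 pairs passed. That permutation test ignores the freedom lost to the group means, so its p-values are too small and this count is too high. Compared with the other 9 libraries, the 3 libraries that stood apart had mean log2 levels that differed by -0.75 for Wfs1, -0.53 for Fibcd1, -0.53 for Dsp, -0.51 for Amigo2 and -0.30 for Grik4. Spink8, whose mean transcript length weighted in the same way was 695 nt, was higher in them by 0.77. Rgs14 (2349 nt), C1ql2 (2000 nt) and Prox1 (6552 nt) differed by 0.10, -0.05 and -0.13. Over all genes with transcripts of 500 to 1000 nt the median of this difference was 0.34, and over those of 4000 to 6000 nt it was -0.15, so that Spink8 and Fibcd1 lay on the same side as other genes of their length and farther out than the median. After the trend was removed the differences were 0.38 for Spink8, -0.66 for Wfs1, -0.38 for Fibcd1, -0.45 for Amigo2 and -0.29 for Dsp. Several marker lists differed in the same 3 libraries. The 5 astrocyte genes summed to 1101 to 1173 TPM in them and 738 to 967 TPM in the other 9, the 5 microglial genes to 261.1 to 308 against 197 to 249 TPM, and the 5 blood genes to 3977 to 6815 against 1603 to 3472 TPM. The 5 oligodendrocyte genes overlapped, with 5085 to 5908 against 2638 to 5335 TPM, as did the 7 choroid plexus genes, with 84.0 to 7256 against 39.3 to 5271 TPM. The 8 further CA3 genes summed to 234.7 to 260.5 TPM in the 3 libraries against 187 to 226 TPM in the others. This was opposite to Grik4, but of these 8 genes 1 lay above the other 9 libraries in all 3. It was Bok, which alone held 127.5, 126.8 and 113.0 TPM of the sums in ethanol replicate 2 and ethanol + stress replicates 2 and 3. The 4 ventral hippocampus genes summed to 129 to 147 against 151 to 179 TPM, and 1 of the 4 lay below in all 3. Single genes lay above the other 9 libraries in all 3 for 3 of 5 astrocyte, 3 of 5 blood, 1 of 5 microglial and 1 of 5 oligodendrocyte genes, and below them for 2 of 5 genes of interneurons. Of the 6 genes listed for forebrain excitatory neurons 3 lay below and 1 above, and their sums overlapped, with 2680 to 2902 against 2677 to 2918 TPM. Over all genes tested, 10.3% lay above and 9.48% below. Of the 9 subfield genes, Spink8 lay above, and Wfs1, Fibcd1, Amigo2 and Grik4 lay below. The part of these lists in the differences was not tested.

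**Figure D4:**
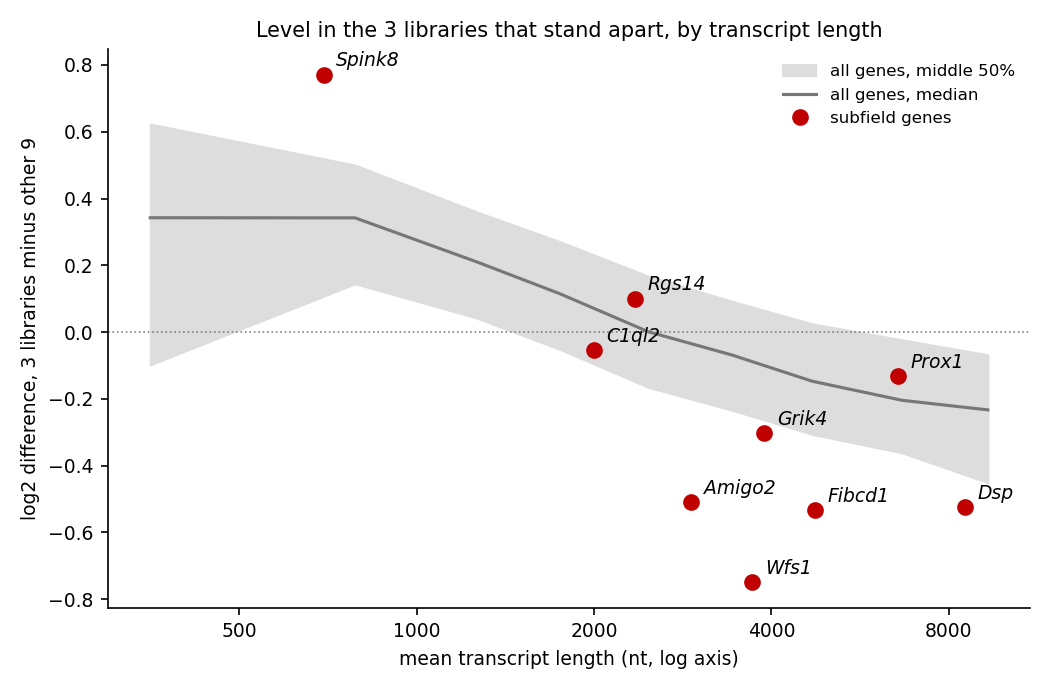
Difference in mean log2 level between the 3 libraries with the steepest negative length trend and the other 9 (vertical axis) against mean transcript length in nt (log axis) for the 9 subfield genes (red) and for all genes in bins of length (line, median, with the middle 50% shaded). Spink8 lies above the shaded range at 0.77, and Wfs1, Amigo2, Fibcd1, Dsp and Grik4 lie below it, between -0.75 and -0.30.

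The 9 genes had 22 transcripts in the data, of which 17 passed the filter and were tested. None was called against control in ethanol, stress or ethanol + stress mice, where 1.25%, 0.918% and 1.22% of 59066 transcripts were called. Some alternatives given at the end did call transcripts of these genes. Prox1-201 was the 1 transcript with an unadjusted p under 0.05 in stress (3.88% of all transcripts) and in ethanol + stress mice (5.56%). For ethanol mice the single transcript of C1ql2 was under 0.05 as well, beside 5.43% of all transcripts (limma adjusted p = 0.865). Prox1-201, a shorter transcript that held 19.2% of the Prox1 sum, was at 1.42, 2.22 and 1.76 TPM in control mice. It was at 3.06, 3.43 and 2.10 TPM in ethanol, 4.63, 2.64 and 3.15 TPM in stress and 2.98, 3.69 and 3.88 TPM in ethanol + stress mice. All stress and ethanol + stress values lay above the control values, as they did for 4.1% and 5.94% of all transcripts, and 1 ethanol value overlapped them. The log2 difference was 0.77 in stress (limma adjusted p = 1) and 0.81 in ethanol + stress mice (limma adjusted p = 0.83), and 0.54 in ethanol mice (limma adjusted p = 0.933). The main Prox1 transcript differed by 0.10, -0.02 and -0.27 in these groups. Amigo2-201 held 37.0% to 57.3% of the Amigo2 sum in control mice, and 44.2%, 7.38% and 15.3% in ethanol + stress replicates 1, 2 and 3. It held 47.7%, 24.8% and 36.5% in ethanol and 58.6%, 29.3% and 49.0% in stress mice, so that each treated group had at least 1 library below the control range. These transcripts share most of their sequence, and their separate values are estimates of how read pairs divide between them.

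**Figure D5:**
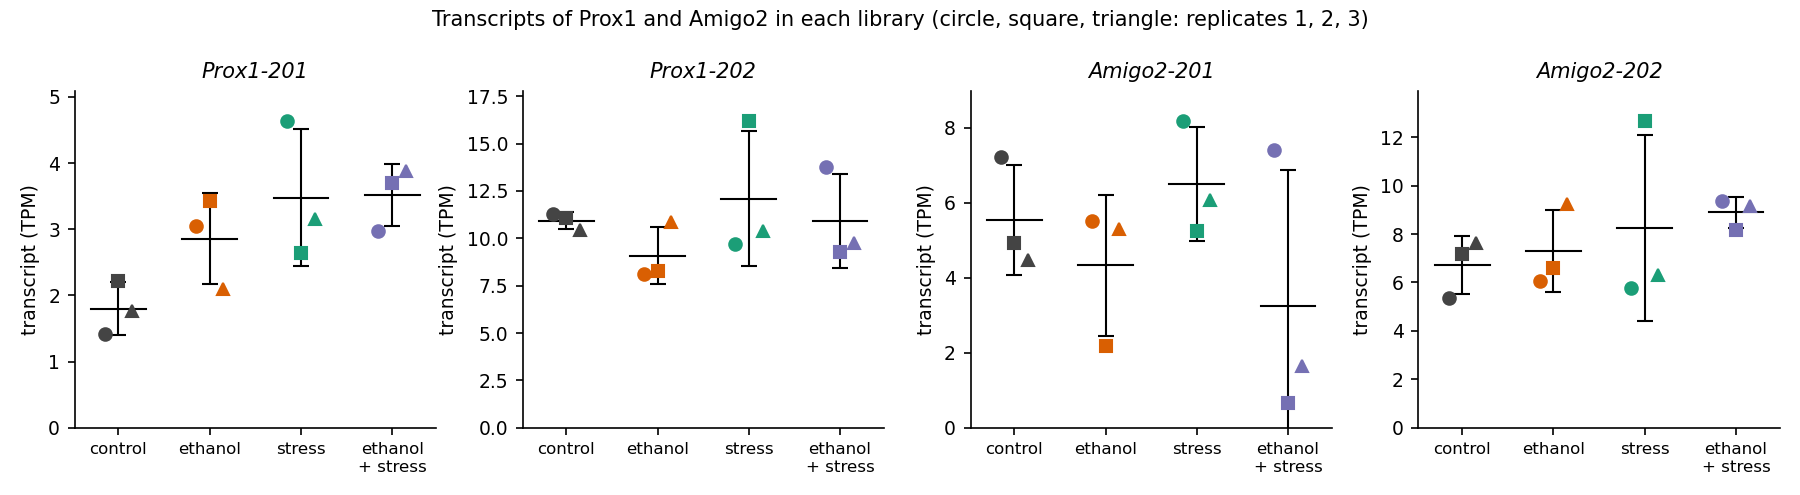
TPM of 2 Prox1 and 2 Amigo2 transcripts (vertical axes, from 0) in the 12 libraries by group, with symbols for replicates 1, 2 and 3, lines for group means and bars for SD (n = 3), the bar of Amigo2-201 in ethanol + stress mice ending at the axis. Prox1-201 lies at 1.42 to 2.22 TPM in control and 2.64 to 4.63 TPM in stress mice, and Amigo2-201 spreads widely within ethanol + stress mice, from 0.651 to 7.40 TPM.

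As a description, 14389 genes of 1 TPM or more were ranked by Pearson r over the 12 libraries with the mean log2 value of the genes listed for each subfield. For CA1 this mean holds Wfs1 and Spink8 (r = -0.911), and for CA2 Amigo2 and Rgs14 (r = -0.547, or 0.539 with a common total), and in the dentate mean C1ql2 had r = 0.194 with Prox1 and 0.228 with Dsp, so that none of these 3 means stands for its subfield. For the dentate genes the nearest were Lct (r = 0.940), Ptgs2 (0.905) and Nipbl (0.903). Lct, the lactase gene, was also among the 7 further granule cell genes, and Ptgs2 encodes the activity-induced cyclooxygenase COX-2. For CA1 they were Rnf40 (0.933), Kat2a (0.929) and Drg2 (0.927), and for CA2 Anxa11 (0.946), Cers4 (0.935) and Slc7a4 (0.932). For Grik4 they were Bdnf (0.928), Adamts1 (0.913) and Srr (0.907), and Bdnf encodes a neurotrophin that is abundant in mossy fibres. All 12 points share their libraries and the length trend. With that trend removed, Lct and Nipbl, Rnf40, Anxa11 and Bdnf were again among the nearest 3 of their subfield, at 0.899, 0.893, 0.951, 0.949 and 0.901.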

How the data were processed

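Hippocampal RNA of 12 mice was sequenced as paired-end stranded libraries depleted of rRNA. The deposited values are a signal made by the authors: TPM per transcript from kallisto, with CASAVA and sleuth also named in the submitters' processing notes (versions not given in the sources used here), scaled between libraries so that they sum to 889222 to 1173650. Identifiers of 113580 out of 115270 transcripts were found in GENCODE release 21 for mouse (GRCm38, the build mm10), and these were summed per gene, and unmatched ones held 0.518% to 0.58% of the values. Division of reads between transcripts is an estimate and moves with fragment length and RNA quality.

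The filter kept 18434 genes that reached 0.1 TPM in 6 or more of the 12 libraries. They entered limma 3.58.1 (lmFit, eBayes with trend, two-sided) in R 4.3.3, as log2(TPM + 0.5), which makes the changes of low genes look smaller. One model held the 4 groups without a block, and adjusted p values are Benjamini-Hochberg over all genes. Exact permutations were made within the levels of the other treatment. The model was run on simulated data with independent noise for each gene. Such data lack the length trend and other variation that genes share within these libraries, so they do not test the model under it. Depth was recovered from low values of genes with 1 transcript, of which 81.8% to 86.1% lay within 0.1 of a whole read pair, and such figures cover counting error only. Promoters are from RefSeq (GRCm38.p6). Python 3.11.15, pandas 2.3.3, numpy 2.4.6, scipy 1.17.1 and matplotlib 3.10.9 were used.

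The 9 genes and the further lists were chosen with earlier results of these data known. The rule names all 9 genes, the 3 genes most correlated with each subfield's mean profile, and of each further list the gene with the smallest p against control and the highest gene. One gene is not reported here. Alternatives were another pseudocount, filter, scaling, eBayes fit, sample set, transcript set, a replicate block and leaving out each library. Removal of the length trend and leaving out 3 libraries were chosen after seeing the data.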

Additional observations from a re-analysis of the deposited data

How the results depend on the processing

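Of 717 values of single genes under alternatives, 677 kept their direction and side of the threshold. A further 26 reversed in sign, 8 lost and 6 gained a call, and the cause was not tested. In part this agreement was fixed in advance. Leaving out a library of a group outside a comparison with control cannot move its log2 change, and an eBayes fit without trend cannot move any. Of the 30 results behind these values, only C1ql2 for ethanol over all mice was called at the start. Over all genes, calls fell to 69 (ethanol), 42 (stress), 48 (interaction) and 62 (stress over all mice) with a minimum of 1 TPM, which tests fewer genes, and rose to 198 (ethanol) and 131 (interaction) with no filter, from 125, 94, 85 and 108. With a common total they were 118 of which 45.8% were higher in ethanol + stress mice, against 179 and 71.5%, and 128 of which 50% were higher for ethanol over all mice, against 207 and 73.4%. The share higher went from 76% to 60% in ethanol mice and from 52.8% to 40.7% for stress over all mice. That scaling turned Rgs14 in ethanol + stress mice to -0.0754 and gave 22 correlated pairs. Summing protein-coding transcripts alone gave 56 calls for stress and 0.0272 for Dsp in stress mice. An eBayes fit without trend called 0 of the 9 genes for ethanol over all mice, and 1 of their transcripts in stress and 1 in ethanol + stress mice, as did a pseudocount of 0.1 in ethanol + stress mice (1). The replicate numbers did not pair the mice, since deviations of same-numbered mice correlated between -0.24 and 0.226, over 0.1 in 2 of 18 pairs. With the replicate block, 1 of the 9 genes was called in ethanol mice, C1ql2 at -0.35.

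With the length trend removed, a setting chosen after seeing the data, Dsp in ethanol + stress mice was 0.0259, 1 of the 9 genes was called for stress over all mice, and 1 pair was correlated. Without the 3 libraries with the steepest negative length trend, also chosen after seeing the data, 1 mouse is left in the ethanol + stress group and is assumed to vary like the others. There the interaction had 130 calls, 2 pairs were correlated, and sign reversed in ethanol mice for Wfs1 (0.27), Spink8 (-0.14) and Amigo2 (0.0769) and, for that 1 ethanol + stress mouse, for Dsp (0.49), Wfs1 (0.19), Fibcd1 (0.18), Amigo2 (0.43) and Grik4 (0.0573).

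Leaving out single libraries gave 114 to 763 calls in ethanol + stress mice, 138 to 653 for ethanol over all mice and 77 to 140 for the interaction, most without ethanol + stress replicate 1, with the fewest of the first 2 without control replicate 3. Of the 9 genes, 0 to 1 were called in ethanol mice, 0 to 1 in ethanol + stress mice and 0 to 2 for ethanol over all mice, and 0 to 1 and 0 to 2 of their transcripts in ethanol and ethanol + stress mice. Sign changed within the range for C1ql2 (-0.0566 to 0.0777), Rgs14 (-0.0845 to 0.0134), Grik4 (-0.0232 to 0.165), Dsp (-0.34 to 0.13) and Spink8 (-0.00135 to 0.16) in stress mice, Wfs1 (-0.40 to 0.27), Spink8 (-0.14 to 0.51) and Amigo2 (-0.27 to 0.0769) in ethanol mice, and Amigo2 (-0.31 to 0.13) and Dsp (-0.43 to 0.0645) in ethanol + stress mice. Amigo2, with 180 to 395 read pairs a library, has the coarsest counts.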
